A study of Mus musculus with 9 samples.

Results

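Fascin and 9 further genes of the actin cytoskeleton were followed in lung dendritic cells before and after a period in culture. The 10 genes are Fscn1, Lcp1, Marcks, Marcksl1, Actb, Pfn1, Tmsb4x, Tmsb10, Cfl1 and Vim. They were found by exact match of the gene symbol among 45535 named rows of the deposited table, and all 10 were matched. The cells are CD103+ dendritic cells from the lungs of mice labelled C57/BL6j, taken 7 days into treatment with bleomycin, a drug that injures the lung and is used to model fibrosis. Lungs were digested with collagenase and the cells were isolated on magnetic beads, although the extraction label speaks of total lung RNA. RNA was taken at once in 5 samples (before culture). In 4 samples it was taken once the cells had been kept for 18 h in RPMI, supplemented with serum from fetal calves, penicillin and streptomycin (after culture). Both groups therefore come from bleomycin-treated lungs, and no untreated lung is part of the comparison. The labels do not say whether samples came from separate mice, so p-values measure only the spread between these samples.

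Actin exists as free monomers and as filaments, and the balance between them sets the shape and movement of a cell. Thymosins hold monomers in reserve, profilin hands them to growing filament ends, cofilin severs old filaments, and bundling proteins such as fascin and L-plastin tie filaments into stiff rods. In dendritic cells fascin is known as a marker of the mature state, in which the cells extend long dendrites and leave the tissue for the lymph node. Vimentin forms intermediate filaments, a separate network that runs beside actin.

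The values are normalized read counts, made by the authors by dividing whole gene counts by 1 factor per sample, so the depth is known. It ran from 14.7 to 35.3 M reads in named rows. The lowest read count of any of the 10 genes in any sample was 2828, so the spread between samples and not counting error sets the precision here. Replicate 4 before culture stood apart from the other 4 samples of its group for several of these genes, and values without it are given where they matter. The label of the cells was checked against 10 markers of the CD103+ type 1 dendritic cell. All 10 were detected in both groups, with a summed normalized count of 134928 to 162866 before culture and 18025 to 20018 after it. Of these 10 markers 9 fell, Itgae (the gene of CD103) among them, and 1 (Batf3) rose.

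Of the 10 genes, 4 rose over culture, 4 fell, and 2 did not pass the test (limma on log2(value + 1), adjusted p under 0.05 over 18202 genes). The genes that rose were Fscn1, Marcks, Marcksl1 and Tmsb4x. Those that fell were Vim, Tmsb10, Actb and Cfl1, and those that did not pass were Lcp1 and Pfn1. The background is high in this comparison, because 68.8% of all tested genes passed the same test, 34.2% as higher and 34.6% as lower. The 8 of 10 genes called here, and the counts of each list below, are read against these shares. The edgeR and DESeq2 tests on the recovered reads called the same 8 genes in the same directions, where edgeR called 69.0% of all tested genes (34.0% higher, 35.0% lower) and DESeq2 69.6% (34.6% higher, 35.0% lower). The groups did not overlap for 4 of the genes that rose and 2 of those that fell, 6 of 10 in all, where 57.3% of all tested genes showed no overlap (28.7% with every sample after culture higher, 28.6% with every one lower). The median log2 fold change of the 10 genes was −0.012, beside 0.0065 over all tested genes. A change of at least 2-fold that passed the test was met by 32.7% of all tested genes, and among the 10 by Fscn1, Marcks and Vim.

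**Figure D1:**
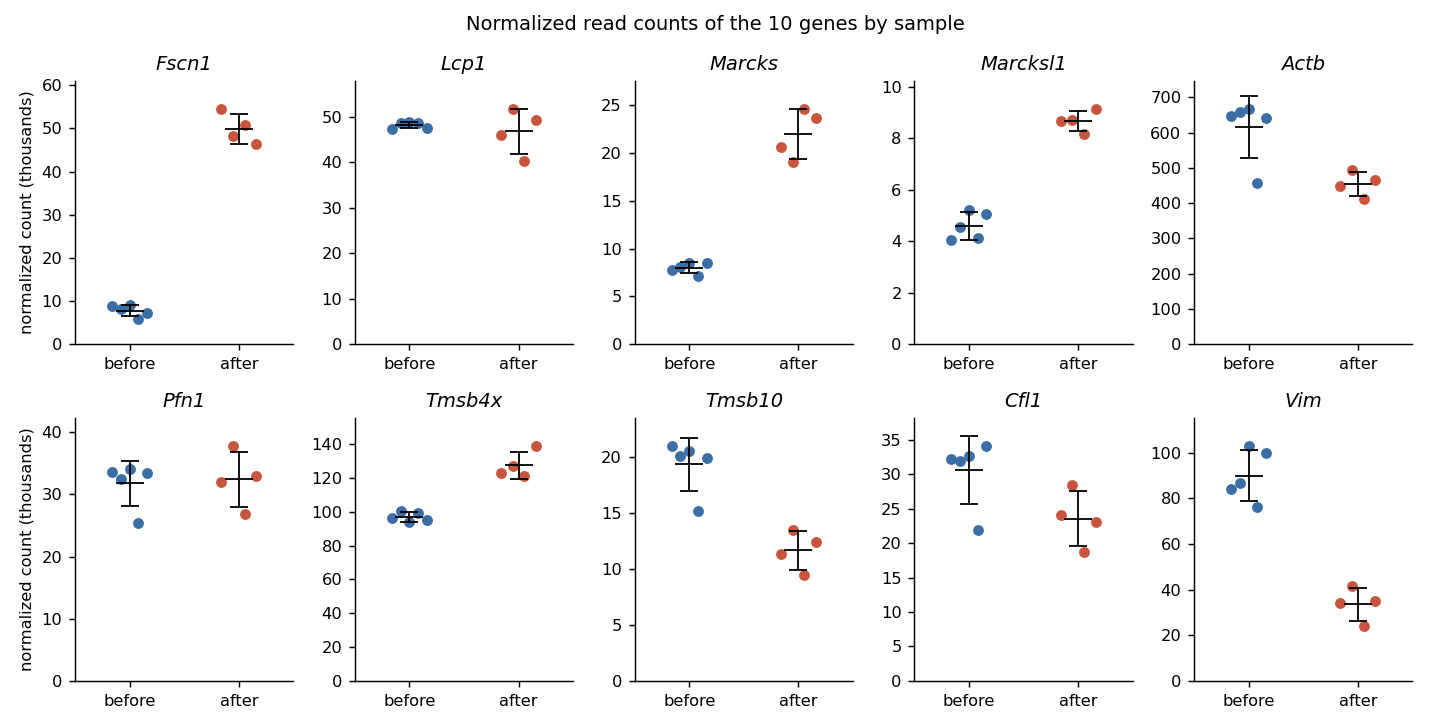
Normalized read counts (in units of 1000, linear axes from 0) of the 10 genes in 5 samples before (blue) and 4 samples after culture (red); each point is a sample, and the black lines give the mean and SD. Fscn1, Marcks, Marcksl1 and Tmsb4x lie higher in every sample after culture, Vim and Tmsb10 lie lower in every one, and the low blue point in the panels of Actb, Pfn1, Tmsb10 and Cfl1 is replicate 4.

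Fscn1, which encodes fascin, rose most. Its normalized counts were 8747, 8129, 8983, 5951 and 7133 in replicates 1 to 5 before culture. After culture they were 54453, 48236, 50718 and 46381 in replicates 1 to 4. Every sample after culture was far higher than any before, and the groups did not overlap. The mean went from 7789 ± 1252 (SD, n = 5) to 49947 ± 3490.3 (SD, n = 4), 6.41-fold higher (log2 fold change 2.69, SE 0.116, limma adjusted p = 2.72e-10). A rise of at least 5-fold that passed the test was met by 2.78% of all tested genes, and Fscn1 ranked 301st of 18202 by log2 fold change. Without replicate 4 before culture the log2 fold change was 2.60. After a correction for GC content and gene length it was 3.42, so the direction held while the fold moved by over 1.5 times. No 50-base window of its longest transcript occurs in another gene.

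Other genes known from mature dendritic cells moved with Fscn1. All 9 further genes of a list of such markers (Ccr7, Il4i1, Socs2, Cacnb3, Ccl22, Tmem123, Relb, Nudt17 and Cd274) rose, and their summed normalized count went from between 41889 and 43534 to between 189451 and 215758. The list was drawn up with results of these data known, so it is no independent evidence. In RNA from many cells, a change in the number of cells of a type and a change of RNA per cell cannot be told apart. The part of such markers in the rise of Fscn1 was not tested.

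The Fscn1 gene lies on chromosome 5 of GRCm38 (chr5:142960343-142973185, forward strand in GENCODE M21). Its neighbour Actb lies 53588 bases away on the same chromosome (chr5:142903115-142906754, reverse strand), and the 2 genes moved in opposite directions. The 250 bases before the start site of Fscn1 and of Marcksl1 are shown because these are the genes that rose and whose windows hold at most 12 exon bases; both are RefSeq sequences on the forward strand of GRCm38.p6. Capitals mark every match to the motifs searched on both strands. They were TATAAA (the TATA box), also CCAAT (the CCAAT box), the GC box GGGCGG, the CArG box of serum response factor and the kappa-B site of NF-kappa-B. The Fscn1 window is chr5:142960105-142960354 and the Marcksl1 window chr4:129513331-129513580.
Fscn1: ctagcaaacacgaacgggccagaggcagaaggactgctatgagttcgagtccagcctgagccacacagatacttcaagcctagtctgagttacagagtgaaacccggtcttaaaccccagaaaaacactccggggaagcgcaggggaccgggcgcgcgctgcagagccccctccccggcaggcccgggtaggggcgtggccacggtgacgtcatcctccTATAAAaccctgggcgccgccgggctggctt
Marcksl1: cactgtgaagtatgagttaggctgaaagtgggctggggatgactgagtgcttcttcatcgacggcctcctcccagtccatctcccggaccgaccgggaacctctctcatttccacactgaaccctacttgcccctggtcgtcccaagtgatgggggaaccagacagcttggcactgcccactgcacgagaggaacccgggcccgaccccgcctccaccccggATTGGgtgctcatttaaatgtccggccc
The Fscn1 window holds 1 TATAAA, whose first base lies 31 bases before the start site, and no match to the other 4 motifs. The Marcksl1 window holds 1 CCAAT, read on the reverse strand, 28 bases before the start. Over all 32851 promoter windows of the same length, 12.4% hold a TATAAA, 33.8% a CCAAT, 32.7% a GGGCGG, 1.47% a CArG box and 7.25% a kappa-B site. Of the 10 genes 8 were matched in the table of windows, and Marcks and Actb were not. A match is a description of the letters and not a measured binding site.

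Lcp1 encodes L-plastin, the actin bundler of leukocytes, and did not follow Fscn1. Its normalized counts were 47368, 48635, 48826, 48720 and 47684 before culture and 46011, 51710, 40302 and 49286 after. The samples before culture were the most uniform of the 10 genes, with a coefficient of variation of 1.39%, and the groups overlapped. The log2 fold change was −0.05 with a 95% interval from −0.25 to 0.15 (limma adjusted p = 0.654), so a change of 2-fold lies outside the interval. Within each sample, the ratio of Fscn1 to Lcp1 counts ran from 0.122 to 0.185 before and from 0.933 to 1.26 after culture. It was 6.70-fold higher after culture (geometric mean; exact two-sided permutation test, p = 0.0159, adjusted p = 0.0185 over 14 ratios), where 0.0159 is the smallest p that 5 against 4 samples allow.

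Among 18 bundlers and crosslinkers on the list, 7 rose and 7 fell. Beside Fscn1, the smallest adjusted p among those that rose were those of Swap70 (3271 ± 128 before, 8615 ± 1028 after culture), which binds F-actin and activates Rac, and of Actn1 (7326 ± 891 against 15882 ± 963), which encodes alpha-actinin. Anln, an actin binder of the cleavage furrow, fell from 742 ± 20.6 to 133 ± 27.9. Flna, which encodes filamin A, fell from 54568 ± 3086 to 42929.5 ± 6906 with overlapping groups. The other fascin genes, Fscn2 (140.2 ± 28.6 against 70.0 ± 32.2) and Fscn3 (21.8 ± 7.99 against 10.3 ± 3.00), both fell.

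Both MARCKS genes rose. MARCKS and its relative, encoded by Marcksl1, bind actin and the inner face of the plasma membrane and are released when protein kinase C phosphorylates them. Marcks counts were 7752, 8052, 8511, 7150 and 8506 before and 20667, 19045, 24600 and 23695 after culture. The groups were fully separate, and the mean was 2.75-fold higher (log2 fold change 1.46, SE 0.0912, limma adjusted p = 1.01e-08). Marcksl1 counts were 4030, 4563, 5216, 4116 and 5062 before and 8677, 8723, 8168 and 9129 after culture. These groups were separate too, with a 1.89-fold higher mean (log2 fold change 0.92, SE 0.0875, limma adjusted p = 6.47e-07). By normalized counts the rise of Marcks was the larger, and the ratio of Marcksl1 to Marcks went from between 0.520 and 0.613 to between 0.332 and 0.458 (exact permutation test, adjusted p = 0.0185). That order turned after the GC and length correction, where the log2 fold change was 1.35 for Marcks and 1.48 for Marcksl1.

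Actb, which encodes beta-actin, fell by a small margin. Its counts were 645998, 658971, 666019, 457978 and 642381 before and 447766, 494033, 410896 and 466006 after culture. Replicate 4 before culture lay within the range of the cultured samples, whereas the other 4 lay above all of them. The mean was 1.35-fold lower after culture, and the log2 fold change of −0.42 (SE 0.171) had a 95% interval from −0.79 to −0.05. The limma adjusted p was 0.0410, close to the threshold. It was 0.00649 without replicate 4 before culture (log2 fold change −0.53), between 0.0609 and 0.0916 when any sample other than this one and replicate 2 after culture was left out (7 samples), 0.285 with quantile normalization and 0.238 after the GC and length correction. Of the reads in named rows, those of Actb made up 2.37 ± 0.263% (SD, n = 5) before and 1.79 ± 0.0463% (SD, n = 4) after the cells were cultured. Of its 50-base windows 14.2% also occur in other genes.

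Actg1, the other cytoplasmic actin, did not pass the test (81660.3 ± 5483 against 77185 ± 6634, log2 fold change −0.08, limma adjusted p = 0.488). Its value is uncertain, because 56.7% of its windows are shared with other genes, most of all the pseudogene Gm12715. The ratio of Actb to Actg1 ran from 6.17 to 8.35 before and from 5.70 to 6.04 after culture, with no overlap (exact permutation test, adjusted p = 0.0185). Of the muscle actins, Acta2 (limma adjusted p = 0.232) and Actg2 did not pass the test, and Acta1 and Actc1 were below a mean of 10.

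Actb is often used as a reference gene to scale others, and other such genes moved as well. B2m (45492 ± 2850.2 before, 88512 ± 6045 after culture), Ppia (8184 ± 256 against 14646 ± 1129), Tbp and Pgk1 rose. Rpl13a, Rplp0, Eef1a1 and Ywhaz fell beside Actb. Gapdh (log2 fold change −0.36, limma adjusted p = 0.0512), Gusb, Sdha and Tfrc did not pass. Relative to Actb within each sample, Fscn1 was 8.68-fold higher after culture, against 6.41-fold by normalized counts. Pfn1 was 1.37-fold higher relative to Actb, with separate groups (exact permutation test, adjusted p = 0.0185), although it did not pass by normalized counts. Cfl1 relative to Actb differed by a log2 ratio of 0.05 (exact permutation test, adjusted p = 0.492), and Lcp1 relative to Actb by 0.37 with overlapping groups (adjusted p = 0.0855, or 0.0308 without replicate 4 before culture).

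The 2 thymosin genes moved in opposite directions. Both proteins bind actin monomers and keep them from polymerizing. Tmsb4x counts were 96103, 100586, 93863, 99370 and 95019.9 before and 123013, 127289, 121190.0 and 138988 after culture. All samples after culture were higher, and the mean rose 1.32-fold (log2 fold change 0.39, SE 0.0993, limma adjusted p = 0.00306). Tmsb10 counts were 20946, 20053, 20523, 15108 and 19905 before and 11276, 13456, 9435 and 12395 after culture. All samples after culture were lower, and the mean fell 1.66-fold (log2 fold change −0.73, SE 0.119, limma adjusted p = 9.99e-05). The ratio of Tmsb10 to Tmsb4x went from between 0.152 and 0.219 to between 0.0779 and 0.106, a 2.18-fold decrease (exact permutation test, adjusted p = 0.0185). After the GC and length correction, the Tmsb10 change was −0.25 on the log2 scale and no longer passed (limma adjusted p = 0.0562). Of its windows 43.5% are shared with other genes, most of all Gm9844, which makes the value uncertain, while none of the windows of Tmsb4x are.

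Pfn1 encodes profilin, which charges actin monomers with ATP and brings them to formins. Its counts were 33520, 32501, 34107, 25334 and 33446 before and 31925, 37787, 26912 and 32971 after culture. The groups overlapped over most of their range, and the log2 fold change was 0.03 with a 95% interval from −0.23 to 0.28 (limma adjusted p = 0.857). After the GC and length correction, however, it was 0.65 and passed the test (limma adjusted p = 3.02e-05). Of the 8 monomer-binding genes tested, 4 rose and 2 fell, with a median of 0.16. Pfn2 rose from 57.7 ± 9.56 to 181 ± 13.4, and Twf1 from 1342 ± 55.2 to 2063 ± 270.1, whereas its relative Twf2 fell from 2849 ± 273 to 1583 ± 202. Twinfilins bind monomers and cap filament ends.

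Cfl1, the main cofilin of non-muscle cells, fell by a margin as small as that of Actb. Its counts were 32266, 31897, 32697, 21967 and 34108 before and 24076, 28450, 18640 and 23096 after culture. Replicate 4 before culture again lay within the range of the cultured samples. The mean was 1.30-fold lower (log2 fold change −0.38, SE 0.143, limma adjusted p = 0.0319). The call was lost when any sample other than replicate 4 before and replicate 2 after culture was left out (7 samples, adjusted p up to 0.0983), and the adjusted p was smaller without replicate 4 before culture (0.00167, log2 fold change −0.49). It was also lost after the GC and length correction (−0.15, limma adjusted p = 0.336).

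The relatives of Cfl1 rose. Dstn, which encodes destrin, went from 2205 ± 242 to 5087 ± 480.0 and Cfl2 from 254 ± 25.2 to 496 ± 53.5. The ratio of Cfl1 to Dstn counts ran from 9.17 to 17.8 before and from 3.58 to 5.48 after culture (exact permutation test, adjusted p = 0.0185). Of the 19 severing and depolymerising factors tested, 7 rose and 8 fell, with a median of −0.17. Scin, which encodes the calcium-dependent severing protein scinderin, rose most, from 452 ± 91.5 to 7986 ± 1118 (17.7-fold, log2 fold change 4.15, limma adjusted p = 3.12e-11). Its relative Gsn, gelsolin, fell from 13383 ± 986 to 3653 ± 641. Among genes that act on cofilin, the phosphatase gene Ssh1 rose from 3449.8 ± 278 to 11370.0 ± 421 and the cofactor gene Wdr1 from 15584 ± 752 to 32035 ± 929. The phosphatase gene Ssh2 fell from 9244 ± 341 to 5334 ± 496 and the kinase gene Limk1 from 1442 ± 142 to 773 ± 89.6.

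Vim, which encodes vimentin, fell most of the 10 genes. Its counts were 84110, 86616, 102981, 76095 and 99770.5 before and 33932, 41655, 24143 and 34942 after culture. The highest sample after culture lay well below the lowest one before it. The mean went from 89915 ± 11218 (SD, n = 5) to 33668 ± 7216 (SD, n = 4), 2.67-fold lower (log2 fold change −1.44, SE 0.148, limma adjusted p = 1.51e-06). None of its windows is shared with another gene. Relative to Actb in the same sample it was 2.02-fold lower (exact permutation test, adjusted p = 0.0185).

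Of the 12 genes on the intermediate filament list, 9 fell, none rose and 3 did not pass, with a median of −1.51. Among all tested genes 34.6% fell. The nuclear lamins Lmnb1 (6189 ± 479 against 969 ± 142), Lmna (8061 ± 1979 against 2104 ± 475) and Lmnb2 fell, as did Nes, which encodes nestin (921 ± 219 against 264 ± 67.7), Synm, Des, Krt7 and Krt19. Plec, the linker plectin, did not pass (23008 ± 2925 against 19016 ± 3817, limma adjusted p = 0.0807), nor did Krt8 and Krt18.

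Several of these genes, Vim, Des and the keratins among them, are also made by other cells of the lung, and markers of some of those cells moved with them. All 8 fibroblast markers fell, and their summed normalized count went from between 16471 and 29692 to between 2294 and 4562. All 8 endothelial markers fell (sums from 24569 to 35764 before and from 3286 to 4320 after), as did 7 of 8 epithelial markers (25876 to 42617 against 5987 to 9785). The other epithelial marker, Foxj1, rose 7.60-fold. Neutrophil markers fell in 8 of 9 cases, and their sums overlapped (13275 to 22757 against 6914 to 14838). The overlap came from Mmp8, the 1 marker that rose (24.6-fold). Without it the sums ran from 12889.7 to 22204 before and from 822 to 1705 after culture, a sum added after the values were seen. For monocytes and interstitial macrophages 5 of 9 fell and the sums overlapped (31327 to 57606 against 17607 to 39792). Of the 8 markers of alveolar macrophages 6 fell and 1 (Fabp4, 3.65-fold) rose (17350.4 to 25936 against 8102 to 11213). Of the 7 of natural killer cells 6 fell (1971 to 3779 against 712 to 1328). Of the 8 smooth muscle and pericyte markers 4 fell, Des among them, while Acta2, Tagln, Cnn1 and Notch3 did not pass, and the sums overlapped (1047 to 2169.8 against 851 to 1241). Of the 8 T cell markers 5 did not pass, 2 fell and 1 rose (6492 to 7609 against 5939 to 7829). Of the 7 B cell markers 4 did not pass, 2 fell and 1 rose (4659 to 7370.3 against 3732 to 5330.0). Type 2 dendritic cell markers fell in 4 of 7 cases, and 1 (Itgam) rose (29693 to 47756 against 17281 to 31610.4). Platelet and erythroid markers fell in 5 of 7 tested, and 2 rose (3930.0 to 12068 against 2156 to 4414). The sums of both lists overlapped between groups. No marker of these lists was at 0 in all samples of a group. The part of these cells in the fall of Vim and of the other genes was not tested.

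**Figure D2:**
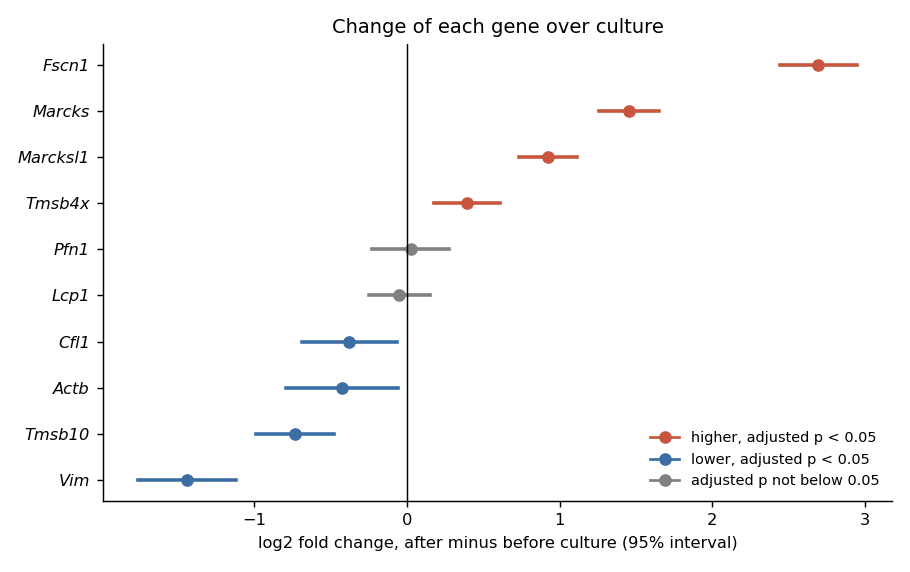
Log2 fold change of the 10 genes, after minus before culture, as point and 95% interval from limma; red, blue and grey mark genes that rose, fell or did not pass an adjusted p of 0.05. Fscn1 lies furthest to the right at 2.69 and Vim furthest to the left at −1.44, while the intervals of Actb and Cfl1 end just below 0.

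Levels of different genes were compared per kilobase of the longest GENCODE transcript. Before culture the order was Actb, Tmsb4x, Vim, Tmsb10, Pfn1, Cfl1, Lcp1, Fscn1, Marcksl1 and Marcks. Actb stood at 319932 ± 45777 normalized counts per kilobase and Tmsb4x at 112255 ± 3327, with Vim next at 30729 ± 3834. Fscn1 stood at 2912 ± 468 (SD, n = 5). The ranges of Vim and Tmsb10, of Pfn1 and Cfl1, of Cfl1 and Lcp1, and of Fscn1 and Marcksl1 overlapped. Overlap of ranges does not show that neighbours are equal, because levels per kilobase were not compared within each sample.

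After culture Fscn1 had moved from the 8th to the 3rd place, at 18672 ± 1305 per kilobase (SD, n = 4). It followed Actb (236810 ± 18147) and Tmsb4x (147708 ± 9257), and its range overlapped that of Tmsb10 (16870 ± 2491). Next came Pfn1, Lcp1, Vim and Cfl1, and Marcks (5435 ± 640) and Marcksl1 (5405 ± 245) came last, with overlapping ranges. The order depends in part on the length used. With the summed exon length of each gene, Fscn1 went from the 9th place (2586 ± 416) to the 3rd (16583 ± 1159), and Lcp1 from the 7th (5076 ± 70.6) to the last (4927 ± 519), below both Marcks genes. By that length the range of Lcp1 after culture overlapped those of both Marcks genes. Among 42481 named genes with a length, Fscn1 ranked 434th per kilobase before and 31st after culture, Actb 1st in both and Tmsb4x 5th and then 2nd. Actb was 110-fold above Fscn1 per kilobase before and 12.7-fold above it after culture. Together the 10 genes made up 3.67 ± 0.287% (SD, n = 5) of the reads in named rows before and 3.20 ± 0.0649% (SD, n = 4) after the cells were cultured. The fall is that of Actb: without it the other 9 genes went from 1.30 ± 0.0318% to 1.40 ± 0.0247%, and the groups did not overlap.

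**Figure D3:**
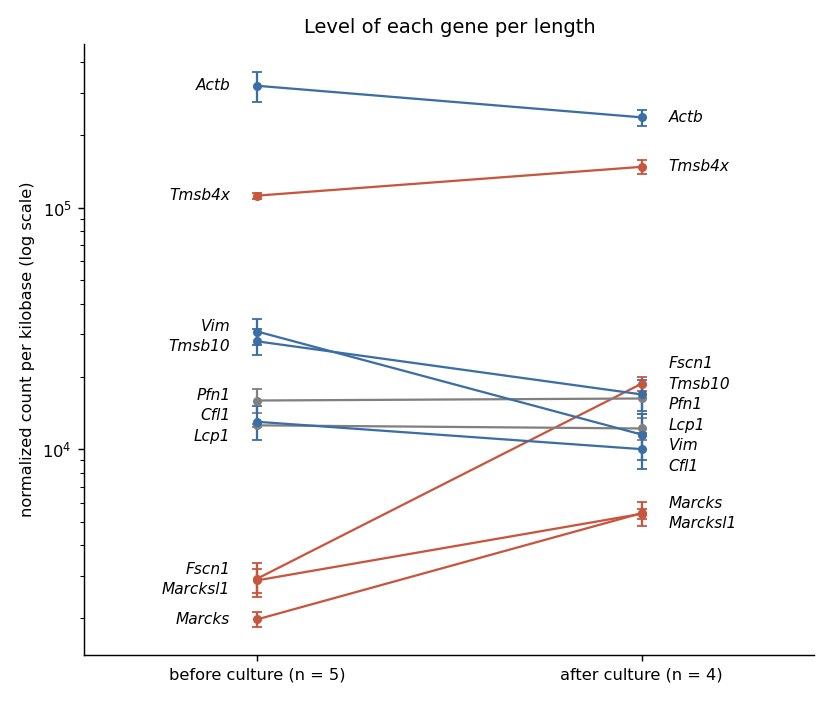
Normalized count per kilobase of longest transcript (log scale) for the 10 genes, before (left, n = 5) and after culture (right, n = 4); points are means, bars are SD, and colours mark genes that rose (red), fell (blue) or did not pass (grey). Fscn1 moves from the 8th to the 3rd place, Vim moves down from the 3rd to the 7th, and Actb and Tmsb4x stay on top.

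The ratios of related genes do not depend on scaling by 1 factor per sample, and all 5 such ratios of normalized counts separated the groups. Those of Marcksl1 to Marcks, Tmsb10 to Tmsb4x, Actb to Actg1 and Cfl1 to Dstn were lower after culture, and that of Fscn1 to Lcp1 was higher. Ratios can change with the GC and length correction, after which Marcksl1 rose more (log2 fold change 1.48) than Marcks (1.35). The shared windows of Actg1 and Tmsb10 also make their ratios uncertain. Of 14 ratios tested in all, 12 passed at an adjusted p of 0.0185, which is the smallest value that this many ratios at the smallest p allow.

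**Figure D4:**
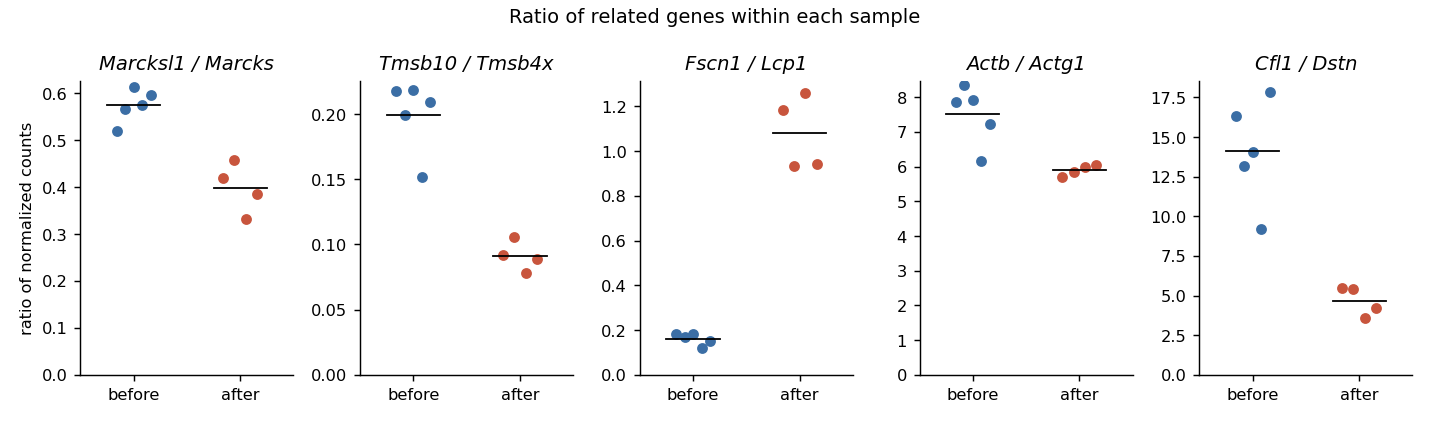
Ratio of normalized counts of 2 related genes within each sample, before (blue, n = 5) and after culture (red, n = 4); each point is a sample, the black line is the mean, and all axes start at 0. The points of the groups do not overlap in any panel, and those of Fscn1 to Lcp1 rise from 0.185 or less to 0.933 or more.

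Further genes of the cytoskeleton were read from lists drawn up with earlier results known. Most of these lists concern actin, but those of intermediate filaments and of serum response factor and its targets are counted too. Over 187 distinct genes tested from 15 lists, 59 rose and 78 fell, or 73.3% in all, beside 68.8% of all tested genes. Without the 10 genes described above, 55 of 177 rose and 74 fell (median −0.11). Most lists held both directions. Of the Arp2/3 complex, which starts branched filaments, 3 subunit genes rose, namely Actr2 (12988 ± 737 against 20082 ± 2078), Arpc5 and Arpc5l. Arpc1b, Arpc3 and Arpc1a fell, and Actr3 did not pass. Of the WASP and WAVE genes that switch this complex on, 7 of 16 rose and 6 fell. Cyfip1 rose from 5697 ± 529 to 10434 ± 1183 while its relative Cyfip2 fell from 8804 ± 445 to 6255 ± 517. Wasl rose from 1025 ± 48.6 to 1838 ± 210.3 while the leukocyte form Was fell from 2307 ± 311 to 1336 ± 242, and Hcls1 fell from 7500.2 ± 1109.8 to 3173 ± 632.

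Formins extend unbranched filaments, and of 15 formin and Ena/VASP genes 8 fell and 4 rose. Fmnl1 fell from 17253 ± 1969 to 6922 ± 384, Vasp from 13602 ± 1402 to 4666 ± 534 and Diaph3 from 473 ± 42.6 to 115 ± 14.5. Inf2 rose from 2827 ± 309.5 to 9801 ± 576 and Fmn1 from 841 ± 176 to 2256 ± 318. Of 12 capping genes 7 rose and only Eps8 fell (5305 ± 532 against 2777 ± 598). Capg, a capper of macrophages and dendritic cells, rose from 3329 ± 695 to 7673 ± 1942 and Add1, which encodes an adducin, from 4348 ± 187 to 7413 ± 228.

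Genes of signalling proteins that act on actin were also measured. Cdc42, which drives filopodia, rose from 15408 ± 1040.2 to 20827 ± 2049. Rac1 did not pass (10687 ± 696 against 10756 ± 961), and Rac2, the form of blood cells, fell from 6147 ± 687 to 3572 ± 284. The kinase gene Pak1 fell from 4270.0 ± 412 to 1059.8 ± 150.3 and Cdc42ep4 from 2238 ± 272 to 617 ± 121. Of 16 genes that link actin to the membrane 13 fell and 3 (Rdx, Lima1 and Ilk) rose, with a median of −0.54. Of all tested genes 34.6% fell and 34.2% rose. Parvg fell from 3861 ± 385 to 1121 ± 95.5, Sptbn1 from 12648 ± 1528 to 4619 ± 244 and Ezr, which encodes ezrin, from 9091 ± 467 to 4626 ± 362. Tln1, which encodes talin, fell from 32714 ± 2724 to 23147 ± 3475.

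Tropomyosins lie along filaments and set which other proteins can bind them. Tpm1 rose from 996 ± 142 to 4697 ± 441 (log2 fold change 2.24) and Tpm4 from 9698 ± 752 to 14805 ± 699.5, Tpm2 fell, and Tpm3 did not pass (limma adjusted p = 0.0815). Of 16 myosin genes 5 rose and 4 fell. Myo1g, a myosin of blood cells, rose from 15263 ± 952 to 37425 ± 3146 and Myo5a from 4459 ± 269.5 to 10969 ± 1885. Myh10, a heavy chain of non-muscle myosin, fell from 1133 ± 98.9 to 289 ± 12.2, and Myh9, another such chain, did not pass (59005 ± 5546 against 58279.7 ± 4328).

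**Figure D5:**
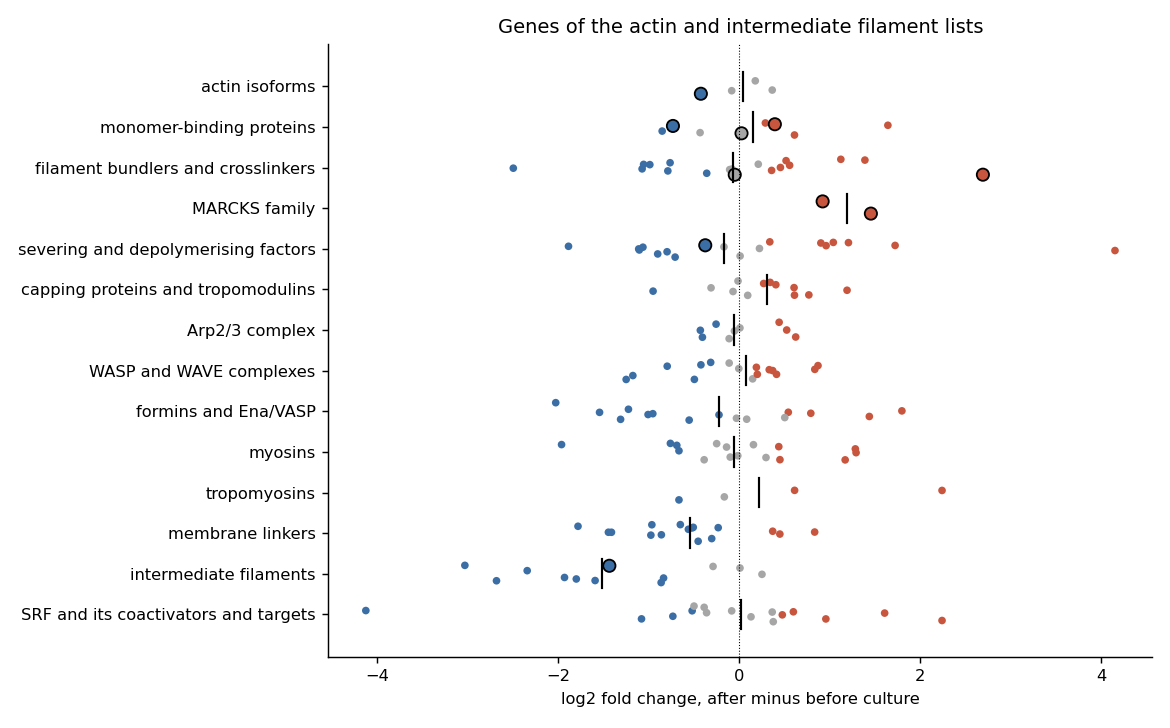
Log2 fold change, after minus before culture, of each tested gene on 14 of the 15 lists (rows; 6 genes stand on 2 lists), with red for higher, blue for lower and grey for genes that did not pass; points with a black rim are the 10 genes of the report, and vertical bars are list medians. Most rows spread to both sides of 0, the intermediate filament row lies mostly on the left with a median of −1.51, and Scin is the point furthest to the right at 4.15.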

How the data were processed

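RNA of CD103+ lung dendritic cells was sequenced in 5 samples before and 4 after culture, grouped by their treatment labels. The authors deposited 1 table of normalized counts, a signal per gene. The submitters' processing notes name DESeq2 and GRCm38, and the aligner, counter and strand setting are not given in the sources used here. All values (100%, tolerance 1e-06) were whole multiples of the value of 1 read (0.758 to 1.79), so whole reads were recovered. The 3782 rows without a symbol were left out. They held 6.43 to 10.9% of reads before and 3.87 to 5.46% after culture, so the groups did not overlap. Sampling noise alone did not account for replicate differences (chi-square per degree of freedom 7.02 to 66.9 over 16 pairs), so each sample was counted as 1.

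Log2(value + 1) of the 18202 named genes with a mean of at least 10 was fitted with limma 3.58.1 (mean-variance trend, two-sided) in R 4.3.3, with Benjamini-Hochberg adjustment over all of them and a threshold of 0.05. Alternatives, among them edgeR 4.0.16 (quasi-likelihood) and DESeq2 1.42.0 on the recovered reads, are given in the closing section. Within-sample ratios of 14 gene pairs were compared by exact two-sided permutation. Levels per kilobase used the longest GENCODE M21 transcript, and GC and length were known for 96.5% of tested genes. In simulated counts with a dispersion of 0.02 the limma fit recovered 197 of 200 changed genes, and with 0.1 it recovered 121 of 200. Of the calls 3.43% and 3.97% were false. Only 200 genes were changed in the simulation, whereas 68.8% of tested genes passed in the data. It therefore does not show how the scaling behaves here. Without strand, reads of overlapping antisense genes cannot be told apart.

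The 10 genes, the lists and the tests were chosen with earlier results of these data known. Genes named are the 10, and of each list the gene with the highest mean, the 3 with the smallest adjusted p and those called against the list's median. Named outside this rule, after their values were seen, are Fscn2, Fscn3, Ssh2, Limk1, Actg2, Acta1, Actc1, Capg, Fmnl1, Rac1, Rac2, Arpc1a, Arpc1b, Arpc3, Lmnb2, Synm, Des, Plec and the keratins, Rpl13a, Rplp0, Eef1a1, Ywhaz and the reference genes that did not pass. Some results on listed genes are not reported here.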

Additional observations from a re-analysis of the deposited data

Results flagged for a closer look

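Of 48 sets of values checked (10 genes and 14 ratios in each group), 7 held a sample far from the rest of its group by Dixon's criterion, which chance meets in about 1 in 20 sets. In every case the sample was replicate 4 before culture. Its normalized count of Actb was 457978, while the other 4 samples ran from 642381 to 666019. That of Pfn1 was 25334 beside 32501 to 34107, that of Tmsb10 was 15108 beside 19905 to 20946, and that of Cfl1 was 21967 beside 31897 to 34108. Its ratio of Tmsb10 to Tmsb4x was 0.152 beside 0.199 to 0.219. Its ratios to Actb were high, at 0.106 for Lcp1 beside 0.0733 to 0.0742, and at 0.217 for Tmsb4x beside 0.141 to 0.153. The sets are not independent, since several share Actb.

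This sample was the lowest of its group for 7 of the 10 genes, and for 30.4% of all tested genes and 46.4% of the 5113 with a mean of at least 1000. Replicate 3 after culture was the lowest of its group for 8 of the 10, and for 33.7% and 55.0% of those genes. Both samples carry the number 4 in their library names, and of the pairs by library-name number theirs had the highest correlation of deviations (0.35). Both were the lowest of their groups for 5 of the 10 genes. The same held for 18.1% of all tested genes and 35.0% of those with a mean of at least 1000. The labels do not say whether this number marks a shared mouse or batch. Why these samples are low was not tested.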

How the results depend on the processing

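Each gene was refitted under 24 alternatives. Fscn1, Marcks, Marcksl1, Tmsb4x and Vim kept their call and direction and Lcp1 stayed uncalled in 24 of 24, Tmsb10 kept its call in 23, Pfn1 stayed uncalled in 22, and Cfl1 and Actb kept theirs in 13 and 10. Lcp1 and Pfn1 changed sign in 3 each while uncalled. Beyond leaving samples out, the log2 fold change ran from 2.62 to 3.43 for Fscn1 and from −1.51 to −1.27 for Vim. The Actb change was −0.42 with a pseudocount of 8 (limma adjusted p = 0.0653) and with no filter (limma adjusted p = 0.0743), −0.31 with upper quartile scaling, −0.19 with quantile normalization and −0.22 with the GC and length correction. For Cfl1 it was −0.27 with upper quartile scaling and −0.15 with the GC and length correction. That correction gave 0.65 for Pfn1, which passed, and −0.25 for Tmsb10, which did not. It left 1 of the 10 genes lower, and 49 genes of all the cytoskeleton lists lower instead of 78. Upper quartile scaling left 2 of the 10 lower. These settings shift the median of all genes from 0.0065 to 0.114 (upper quartile) and 0.132 (GC and length). Leaving out 1 sample moved Actb between −0.53 and −0.38, Cfl1 between −0.49 and −0.27, and the count of genes lower between 2 and 4. Lcp1 relative to Actb moved between 0.35 and 0.48, and passed at 0.48 without replicate 4 before culture. The cause was not tested. With a replicate block from the numbers in the sample titles, Actb was −0.40 and Cfl1 −0.33, neither passed, 2 of the 10 were lower, and 11646 genes were called in place of 12524. With a replicate block from the library-name numbers and the GC and length correction together, Actb was −0.20, Cfl1 −0.14 and Pfn1 0.65, and 2 of the 10 were lower. The block from library-name numbers alone called 12836. With it Actb (−0.39, limma adjusted p = 0.0125) and Cfl1 (−0.36, limma adjusted p = 0.00157) both passed. Deviations of same-numbered samples correlated between −0.21 and 0.081 by title number, where 3 of 8 samples correlated best with their own number, and between 0.045 and 0.35 by library-name number (7 of 8). The labels do not say whether either number marks a shared mouse or batch. The main fit used no block, so it leaves out any such pairing.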

Other observations

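The genes whose pattern over the 9 samples lay closest to that of Fscn1, among 11785 genes with a mean of at least 100, were Pdcd1lg2, Tspan3, Pcyt1a, Mmp25 and Socs2. Likeness was the root mean square difference of mean-centred log2 values, which was 0.121 for Pdcd1lg2 and 0.159 for Socs2. Their log2 fold changes were 2.60, 2.72, 2.61, 2.74 and 2.53 in the order given. The points fall into the 2 groups, so this mainly ranks genes by the size of their change.

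Among 16 genes of serum response factor, its coactivators and its targets, 5 rose and 4 fell, with a median of 0.02. Egr1, an immediate early gene, fell from 38962 ± 799 to 2286 ± 575 (log2 fold change −4.13). Srf itself fell by 1.08 on the log2 scale, while its coactivator gene Mrtfa rose by 0.60.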
